A study of Mus musculus with 6 samples.

Results

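The mitosis and G2/M genes are a list of 40 mouse genes whose products carry a cell through the second gap phase (G2) and mitosis (M). Each gene was represented by the row of the deposited expression table that carried its symbol alone, and, where several rows did, by the one whose mean of the 6 arrays was highest. In this way 39 of the 40 genes were found among the 19938 genes tested, and the array values of Ccnb1, which encodes cyclin B1, are not analysed here. The list names genes by their function, but it was chosen with earlier results of these data known.

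RNA was measured at E13.5 in 3 mutant pools, labelled beta-catenin activated, and in 3 control pools, labelled wild type. Each pool held whole pancreata of 3 embryos and was hybridized to 1 Affymetrix Mouse Gene ST array. Mutant embryos carried Pdx1-Cre and 1 copy of the Ctnnb1 tm1Mmt allele (Pdx1-Cre; Ctnnb1 tm1Mmt/+), in which Cre, driven by the Pdx1 promoter in the early pancreatic epithelium, deletes exon 3 of Ctnnb1, which the cell needs to degrade β-catenin. No source used here gives the alleles that the control embryos carried, Cre included. Mesenchyme, vessels, nerves and blood cells around the epithelium were part of each pool but are not targeted by this Cre.

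Entry into mitosis is driven by the kinase Cdk1 with its A and B type cyclins, and the Cdc25 phosphatases remove the inhibitory phosphates from Cdk1. Aurora and Polo-like kinases then build the spindle, kinetochores attach chromosomes to it, the spindle checkpoint delays anaphase until all are attached, and kinesins, anillin and their partners divide the cell. Most of these genes are transcribed periodically with a peak in G2 and M, through the CHR element and CCAAT boxes of their promoters, so that in a tissue their RNA tracks the dividing cells. In a whole pancreas, a larger share of dividing cells and more RNA in each dividing cell cannot be told apart.

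Ctnnb1, the targeted gene, had array values (log2) of 12.64, 12.37 and 12.65 in mutant pools and 12.36, 12.14 and 12.33 in control pools. Its change of 0.28 did not pass the test (adjusted p = 0.148 from limma), and 1 value for the whole transcript is no check of the removal of an exon.

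Mitosis and G2/M genes differed little between the genotypes one by one, but nearly all of the differences ran the same way, with higher values in mutant pools. With limma and a threshold of 0.05 on the adjusted p, 10 of the 39 genes rose and 0 fell, which is 25.6% of them, against 6.59% of all genes tested that rose and 7.53% that fell. At an unadjusted p under 0.05 from limma 21 of the 39 rose and 0 fell. Of all 19938 genes tested, 2695 rose and 2386 fell at this unadjusted threshold. Without control pool 1, 3 of the 39 rose, and without mutant pool 2, 14 did. The log2 change, mutant minus control, had a median of 0.30 over the 39 genes and lay between -0.05 (Mki67) and 0.63 (Nuf2). It was above 0 in 38 of them, or 97.4%, against 57.5% of all genes tested, whose median was 0.03. All 3 mutant pools lay above all 3 control pools in 22 of the 39 genes, an arrangement found in 16.9% of all genes, and below them in 0, against 13.9% of all genes. The 39 genes all had a mean level above the median of all genes tested, so these shares are not for genes of like level. With 3 pools per genotype the number of arrays limits the precision, and the replicate standard deviation (SD) over the pools had a median of 0.08 among these genes in mutant pools and 0.13 in control pools.

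**Figure D1:**
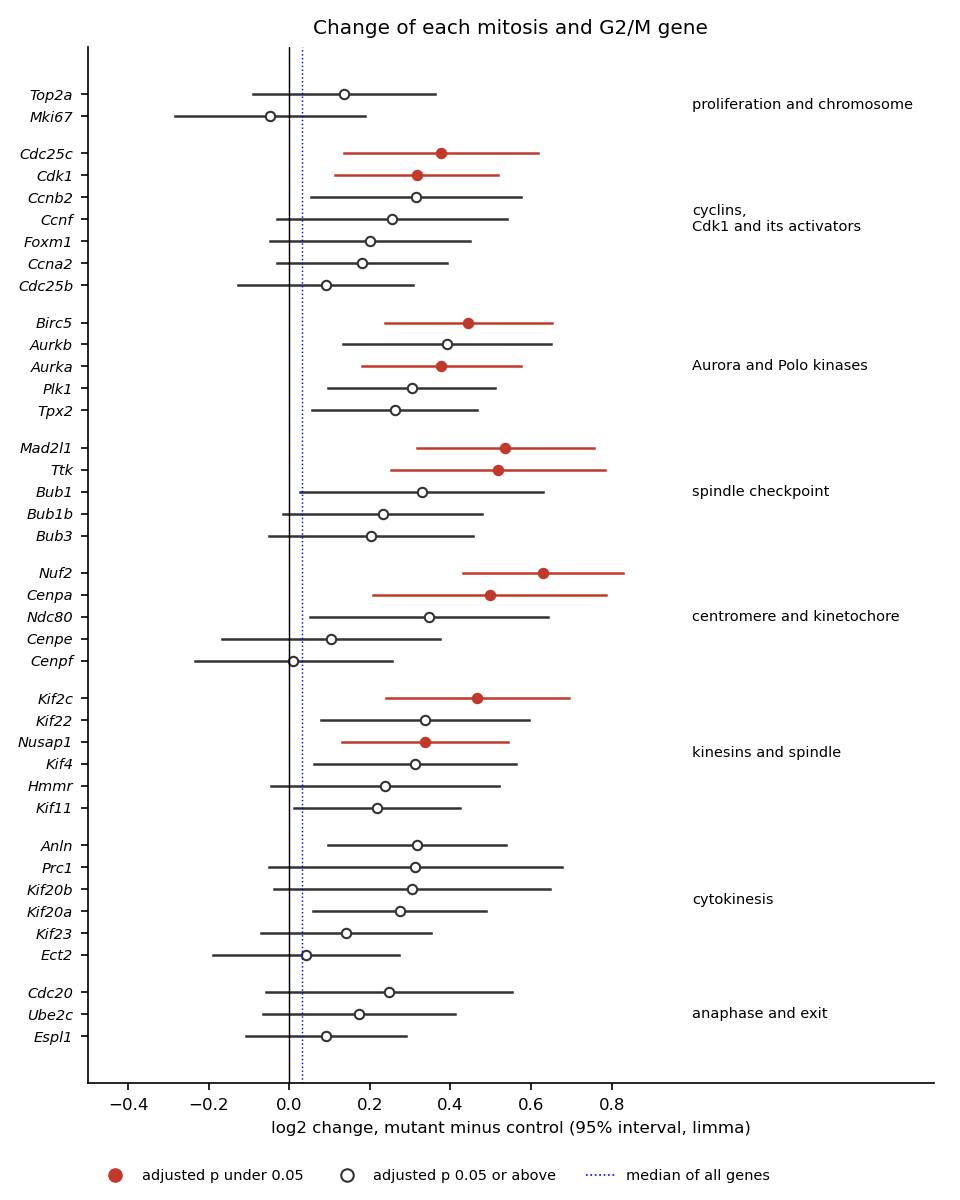
Log2 change (mutant minus control, horizontal axis) of each of the 39 mitosis and G2/M genes by functional group, with 95% intervals from limma; filled red points passed an adjusted p of 0.05 and the dotted line marks the median of all genes tested. The points run from -0.05 for Mki67 to 0.63 for Nuf2, and the 10 filled points are spread over 5 of the 8 groups.

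The promoters of these genes are shown for the CHR elements and CCAAT boxes named above. Since genes of G2 and M are known for these elements, a high share of them is background and not a result of these data. RefSeq promoter windows on the build GRCm38.p6, 250 bases before to 50 bases after an annotated start, were at hand for 34 of the 40 genes, in 37 windows. The CHR element (TTTGAA or TTCGAA on either strand) was present in 31 of the 37 windows, 83.8%, against 19.2% of all 32851 promoter windows. The CCAAT box (CCAAT on either strand), the sequence that the factor NF-Y binds, was present in 29, 78.4%, against 37.4% of all windows. Both occurred together in 27 windows, 73.0%, against 7.52% of all windows, and no CHR element overlapped a CCAAT box in these windows. A match of letters is a description and not a shown binding site, and a missing match says only that these letters are not in the window.

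Stretches of 3 promoters with both elements and of 3 with neither are given, from 100 bases before to 25 bases after the start, 5′ to 3′ on the strand of the gene, with CHR elements (TTTGAA, or TTCAAA on the other strand) and CCAAT boxes (CCAAT, or ATTGG on the other strand) in capitals. Cdk1 (chr10:69352888-69353012, minus strand), Ttk (chr9:83834589-83834713, plus strand) and Ccnb2 (chr9:70421530-70421654, minus strand) hold both, and Nuf2 (chr1:169531440-169531564, minus strand), Mad2l1 (chr6:66535121-66535245, plus strand) and Birc5 (chr11:117849137-117849261, plus strand), which had the lowest adjusted p-values of the set, hold neither.
Cdk1: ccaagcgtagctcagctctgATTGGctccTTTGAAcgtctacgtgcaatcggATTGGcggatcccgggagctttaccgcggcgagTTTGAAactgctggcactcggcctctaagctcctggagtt
Ttk: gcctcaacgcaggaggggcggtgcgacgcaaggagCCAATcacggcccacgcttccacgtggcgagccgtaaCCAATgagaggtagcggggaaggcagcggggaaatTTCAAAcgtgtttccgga
Ccnb2: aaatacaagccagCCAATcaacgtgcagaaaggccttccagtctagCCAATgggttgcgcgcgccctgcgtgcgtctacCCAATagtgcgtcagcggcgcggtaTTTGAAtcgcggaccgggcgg
Nuf2: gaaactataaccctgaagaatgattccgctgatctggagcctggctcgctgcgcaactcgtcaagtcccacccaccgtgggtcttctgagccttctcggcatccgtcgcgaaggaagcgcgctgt
Mad2l1: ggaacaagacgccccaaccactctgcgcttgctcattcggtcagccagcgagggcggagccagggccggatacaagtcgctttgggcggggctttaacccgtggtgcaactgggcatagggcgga
Birc5: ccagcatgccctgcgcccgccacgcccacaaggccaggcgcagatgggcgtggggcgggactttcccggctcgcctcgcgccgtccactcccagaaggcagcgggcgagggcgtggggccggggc

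The 3 CCAAT boxes of Ccnb2 follow each other at a spacing of 33 bases, and a pair in Cdk1 stands 32 bases apart. Boxes 31 to 33 bases apart, neighbouring or not, occurred in 6 of the 37 windows, 16.2%, against 0.971% of all windows. This spacing was singled out after it was seen. The 6 windows belong to Ube2c, Aurka, Ccnb2, Cdk1, Hmmr and Ccnb1. At least 2 CCAAT boxes were present in 54.1% of the windows, against 11.7% of all windows. By position, CHR elements were most frequent in the 25 bases after the start, in 32.4% of the windows against 1.43% of all, and CCAAT boxes between 75 and 50 bases before it, in 35.1% against 6.99%.

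**Figure D2:**
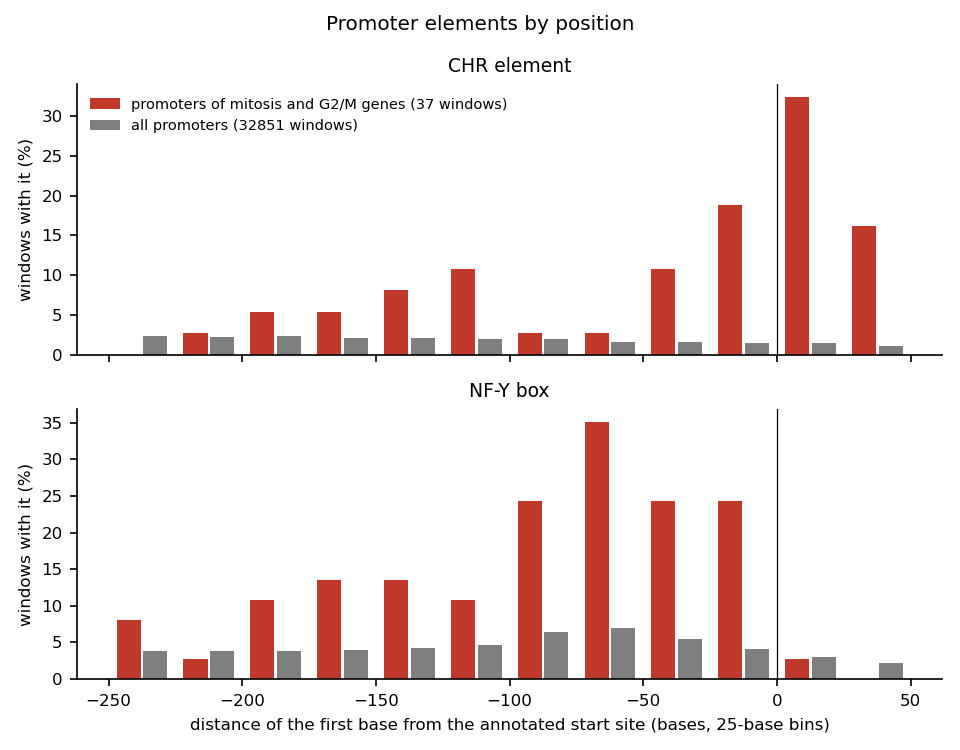
Share of promoter windows (vertical axis, %) with a CHR element (upper panel) or an NF-Y (CCAAT) box (lower panel) whose first base falls in each 25-base bin of distance from the annotated start (horizontal axis), for the 37 windows of mitosis and G2/M genes in red and all 32851 windows in grey. The red bars are tallest in the 25 bases after the start for CHR elements (32.4%) and between 75 and 50 bases before it for NF-Y boxes (35.1%).

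Of the 33 genes with a promoter window and an array value, 24 had both elements, and 4 of these rose, with a median log2 change of 0.24. A further 4 had a CHR element alone, of which Kif2c rose, and Cenpe had a CCAAT box alone. The 4 with neither, Birc5, Mad2l1, Nuf2 and Nusap1, all rose, with a median log2 change of 0.49. Changes ran from -0.05 to 0.52 in the 24 with both and from 0.34 to 0.63 in these 4. A further 6 members had no promoter window, among them Cdc25c, which rose. With so few genes in the classes, a relation between these elements and the changes was not tested. Among all genes tested, 7.22% of those with both elements and 6.36% of those with neither rose, with medians of 0.04 and 0.03.

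Cyclins, Cdk1 and their activators held 2 genes that rose out of 7 measured (28.6%, against 6.59% of all genes tested). Their median log2 change was 0.25. Cdk1, the kinase that starts mitosis, had array values (log2) of 11.09, 11.04 and 11.02 in mutant pools, against 10.63, 10.79 and 10.78 in control pools. The genotypes did not overlap, and Cdk1 rose by 0.32 (standard error 0.09, adjusted p = 0.0441 from limma). Cdc25c, a phosphatase that activates Cdk1, had 7.59, 7.32 and 7.55 in mutant pools, against 7.03, 7.07 and 7.23 in control pools, and rose by 0.38 (standard error 0.11, adjusted p = 0.0441 from limma). Its lowest mutant pool lay above its highest control pool by less than the range of either genotype.

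Ccna2, encoding cyclin A2, had 11.87, 11.96 and 11.86 in mutant pools and 11.61, 11.82 and 11.72 in control pools, so that the genotypes did not overlap, but its change of 0.18 did not pass (adjusted p = 0.275 from limma). Ccnb2, encoding cyclin B2, had 11.70, 11.43 and 11.77 in mutant pools and 11.24, 11.47 and 11.25 in control pools, a change of 0.32 (adjusted p = 0.115 from limma). Mutant pool 2 lay below control pool 2 in Ccnb2, while the other mutant pools lay above every control pool. The changes of Ccnf, encoding cyclin F, of Foxm1, a transcription factor of G2 genes, and of Cdc25b were 0.25, 0.20 and 0.09, with overlapping pools and adjusted p-values of 0.257, 0.309 and 0.646 from limma.

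Aurora and Polo kinases and their partners had the highest median of the functional groups, 0.38. In all 5 the mutant pools lay above the control pools, an arrangement found in 16.9% of all genes. Aurka, the Aurora kinase of the centrosome and spindle poles, had 9.66, 9.64 and 9.66 in mutant pools, against 9.23, 9.36 and 9.24 in control pools. The mutant pools were nearly alike, and Aurka rose by 0.38 (standard error 0.09, adjusted p = 0.017 from limma). Birc5 (survivin), which guides the chromosomal passenger complex to centromeres, had 8.38, 8.38 and 8.49 in mutant pools, against 7.87, 8.02 and 8.02 in control pools, and rose by 0.44 (standard error 0.09, adjusted p = 0.00914 from limma).

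Aurkb, the kinase of the same complex, had 11.26, 11.17 and 11.22 in mutant pools and 10.86, 11.02 and 10.60 in control pools. Its change of 0.39 lay just outside the threshold (adjusted p = 0.0506 from limma), with a wider spread in control (SD 0.21) than in mutant pools (SD 0.04). Plk1, a kinase needed from mitotic entry to cytokinesis, had a change of 0.30 (adjusted p = 0.0567 from limma), and Tpx2, which activates Aurora A on the spindle, one of 0.26 (adjusted p = 0.0951 from limma).

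**Figure D3:**
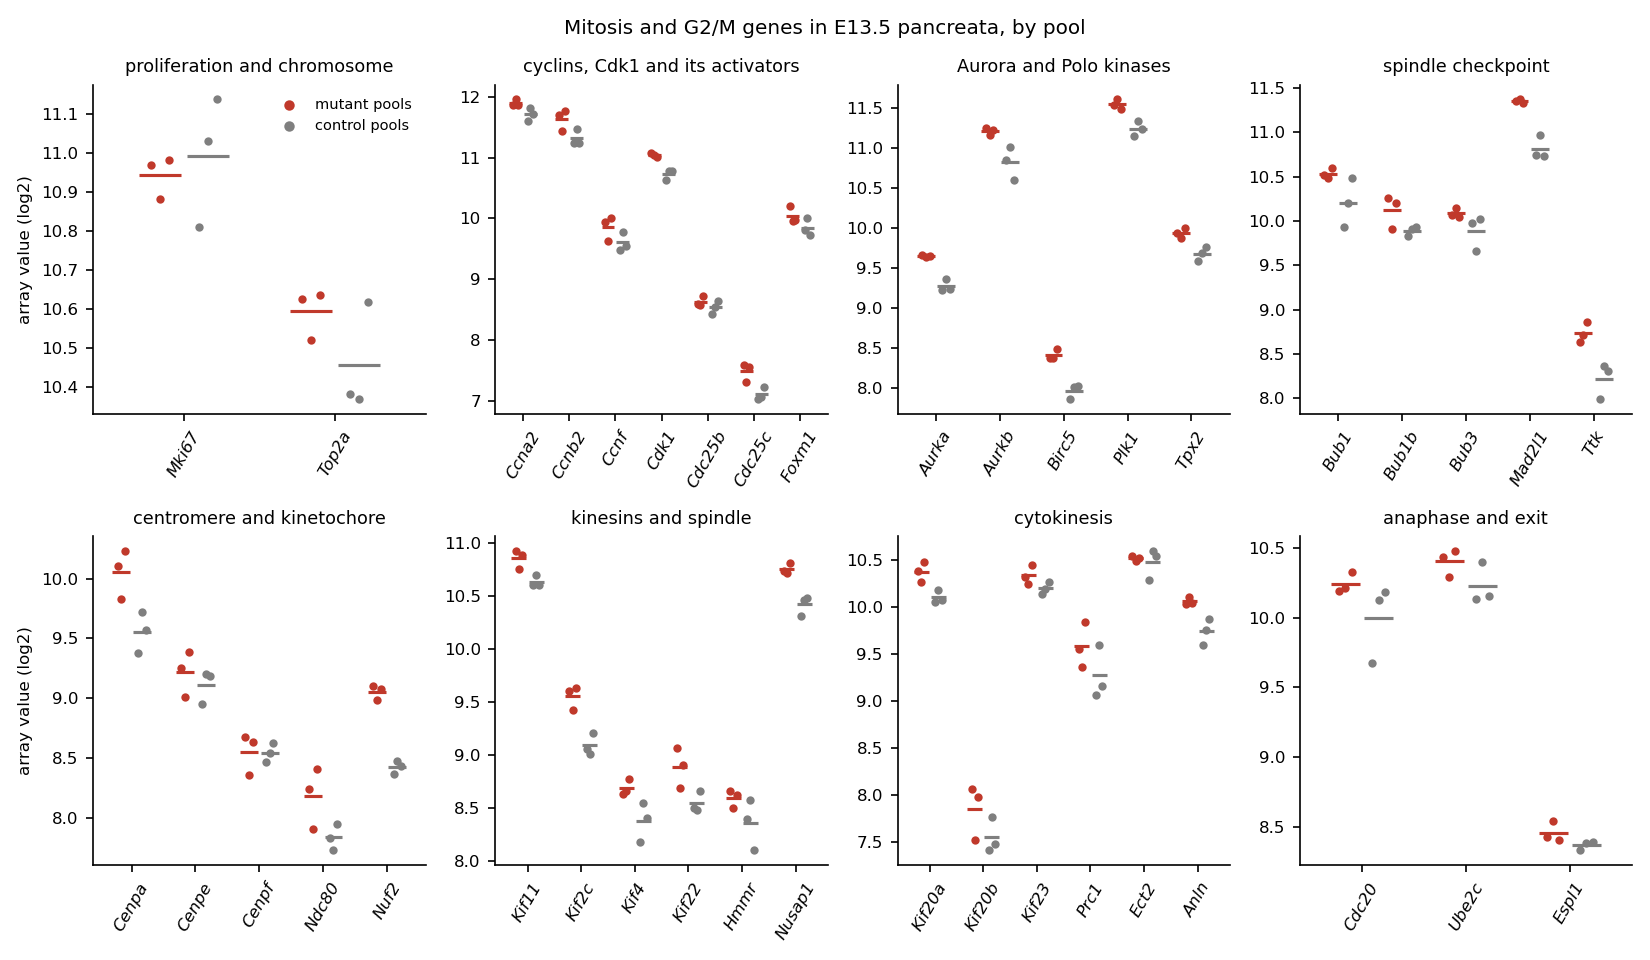
Array values (log2, vertical axis) of the 39 mitosis and G2/M genes in each of the 3 mutant pools (red, left) and 3 control pools (grey, right), in panels by functional group, with horizontal bars at the means of 3 pools; levels of different genes are not comparable, since each has its own probes. In Nuf2 the mutant pools lie between 8.99 and 9.10 and the control pools between 8.37 and 8.48, while in Mki67 the control pools span the mutant pools.

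In the spindle checkpoint, which holds back anaphase while a kinetochore is unattached, 2 of 5 genes rose, and the median change was 0.33. Mad2l1 (Mad2), which binds and restrains Cdc20, had 11.35, 11.37 and 11.33 in mutant pools, against 10.74, 10.97 and 10.73 in control pools. The lowest mutant pool was well above the highest control pool, and Mad2l1 rose by 0.54 (standard error 0.10, adjusted p = 0.00441 from limma), or 1.45-fold. Ttk (Mps1), the kinase that recruits the checkpoint proteins to kinetochores, had 8.64, 8.71 and 8.86 in mutant pools, against 7.99, 8.36 and 8.30 in control pools, and rose by 0.52 (standard error 0.12, adjusted p = 0.0159 from limma). Control pool 2 was the highest control pool in both genes.

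Bub1, a checkpoint kinase, had 10.51, 10.49 and 10.60 in mutant pools and 9.93, 10.20 and 10.49 in control pools, a change of 0.33 (adjusted p = 0.155 from limma) with control pools spread (SD 0.28) far more than mutant pools (SD 0.06). The changes of Bub1b (BubR1) and Bub3, which act with Mad2, were 0.23 and 0.20 (adjusted p = 0.227 and 0.312 from limma), and only in Bub3 did the pools not overlap.

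Among the centromere and kinetochore genes 2 of 5 rose, with a median change of 0.35, and this group held both the largest change of the set and one of the smallest. Nuf2, a subunit of the NDC80 complex that holds microtubule ends, had 9.10, 8.99 and 9.08 in mutant pools, against 8.37, 8.48 and 8.44 in control pools. No other member separated the genotypes as widely, and Nuf2 rose by 0.63 (standard error 0.09, adjusted p = 0.000918 from limma), or 1.55-fold. Cenpa, the histone H3 variant that marks centromeres, had 10.10, 9.83 and 10.23 in mutant pools, against 9.38, 9.72 and 9.57 in control pools, and rose by 0.50 (standard error 0.13, adjusted p = 0.029 from limma), with mutant pool 2 only just above control pool 2.

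Ndc80, the partner of Nuf2, had 8.25, 7.91 and 8.41 in mutant pools and 7.84, 7.73 and 7.96 in control pools, a change of 0.35 with overlapping pools (adjusted p = 0.127 from limma). Cenpe, a kinetochore kinesin, had a change of 0.10 (adjusted p = 0.679 from limma). Cenpf, a kinetochore protein of late G2, had 8.67, 8.36 and 8.63 in mutant pools and 8.47, 8.54 and 8.63 in control pools, a change of 0.01 with a 95% interval of -0.23 to 0.25 (adjusted p = 0.973 from limma).

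Kinesins and other spindle proteins included 2 that rose out of 6 (33.3%, against 6.59% of all genes tested), with a median change of 0.32. Kif2c (MCAK), which takes microtubules apart at kinetochores, had 9.61, 9.43 and 9.64 in mutant pools, against 9.05, 9.01 and 9.21 in control pools, and rose by 0.47 (standard error 0.10, adjusted p = 0.0115 from limma). Nusap1, which bundles spindle microtubules, had 10.74, 10.72 and 10.82 in mutant pools, against 10.32, 10.47 and 10.49 in control pools, and rose by 0.34 (standard error 0.09, adjusted p = 0.0368 from limma). In both genes every mutant pool stood above every control pool.

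The same arrangement held in Kif11 (Eg5), which pushes the spindle poles apart, and in the chromosome-bound kinesins Kif4 and Kif22, with changes of 0.22, 0.31 and 0.34 and adjusted p-values of 0.17, 0.105 and 0.0885 from limma. Hmmr, which focuses spindle poles, had a change of 0.24 with overlapping pools (adjusted p = 0.291 from limma).

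The cytokinesis genes, with a median change of 0.29, and the genes of anaphase and mitotic exit, with 0.17, held no gene past the adjusted threshold from limma, and at an unadjusted p under 0.05 2 of 6 and 0 of 3 passed. Among the cytokinesis genes the pools did not overlap in Anln (anillin, of the contractile ring), with a change of 0.32, and in Kif20a, a kinesin of the central spindle, with 0.27 (adjusted p = 0.0635 and 0.0965 from limma). Prc1, which bundles the microtubules of the midzone, had 9.55, 9.36 and 9.84 in mutant pools and 9.06, 9.59 and 9.16 in control pools, a change of 0.31 with the largest standard error of the set, 0.16 (adjusted p = 0.276 from limma). Kif20b and Kif23, also of the midzone, had changes of 0.31 and 0.14 (adjusted p = 0.255 and 0.412 from limma).

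Ect2, the exchange factor that activates RhoA at the division plane, had 10.54, 10.49 and 10.52 in mutant pools and 10.29, 10.59 and 10.54 in control pools, so that the control pools spanned the mutant pools. Its change was 0.04 with a 95% interval of -0.19 to 0.27 (adjusted p = 0.861 from limma). Cdc20 and Ube2c, the activator and the ubiquitin-conjugating enzyme of the anaphase-promoting complex, and Espl1, the separase that cuts cohesin, had changes of 0.25, 0.17 and 0.09 (adjusted p = 0.307, 0.366 and 0.603 from limma). The pools overlapped in Ube2c and, by a narrow margin, did not in Cdc20 and Espl1.

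Mki67 and Top2a, which are widely read as markers of cycling cells, were among the genes with small differences in RNA. The study itself counted Ki67-positive cells at E13.5 and reports a significant increase in both epithelium and mesenchyme of mutants. That count is of cells with the protein in sections, not of RNA in whole pancreata, and its relation to the values here was not tested. Mki67, which coats mitotic chromosomes, had 10.97, 10.88 and 10.98 in mutant pools and 10.81, 11.03 and 11.14 in control pools, the only member whose mean was lower in mutant pools. Its change was -0.05 with a 95% interval of -0.28 to 0.19 (adjusted p = 0.843 from limma). Top2a, topoisomerase IIα, had 10.63, 10.52 and 10.64 in mutant pools and 10.38, 10.37 and 10.62 in control pools, a change of 0.14 with a 95% interval of -0.09 to 0.36 (adjusted p = 0.466 from limma).

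The pools of 1 genotype differed among themselves in the same genes. Relative to each gene's mean over the 6 pools, the median over the 39 genes was 0.15, 0.02 and 0.20 (log2) in mutant pools 1, 2 and 3, and -0.22, -0.06 and -0.11 in control pools 1, 2 and 3. Mutant pool 2 was the lowest mutant pool in 29 of the 39 genes, and control pool 1 was the lowest control pool in 30 of them and the highest in 0. The same medians over all genes tested lay between -0.02 and 0.02. Between the genotypes, mutant pool 2 and control pool 2 stood closest, with medians of 0.02 and -0.06.

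**Figure D4:**
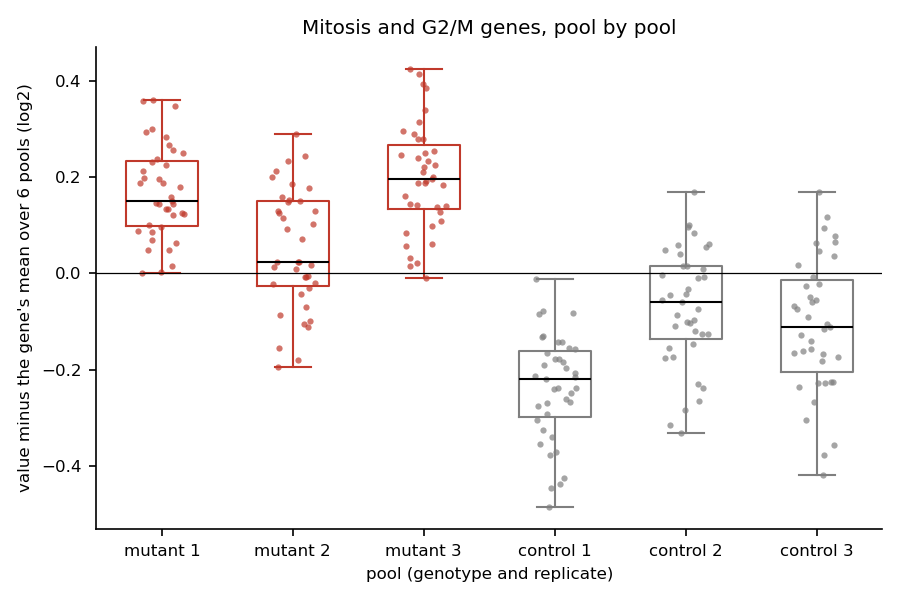
Value of each of the 39 mitosis and G2/M genes in each pool minus the gene's mean over the 6 pools (log2, vertical axis), with mutant pools in red and control pools in grey; boxes give the median and quartiles, whiskers the full range. Mutant pool 2 (median 0.02) is the lowest of the mutant pools and control pool 1 (median -0.22) the lowest of the control pools.

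The number of calls changed with the pools in the fit. Birc5, Mad2l1 and Nuf2 were the 3 that rose without control pool 1, and 9 of the 14 that rose without mutant pool 2 were among the 10 of the fit to all pools. Without mutant pool 1 or mutant pool 3, 4 members rose in each fit, and without control pool 2 or control pool 3, 8 did. Birc5, Mad2l1 and Nuf2 rose in all 16 alternative fits at the same threshold, with adjusted p-values from limma of at most 0.048, 0.0249 and 0.00797. Kif2c was past the threshold in 14 of the 16, Ttk in 13, Aurka in 11, Cdc25c and Cenpa in 10, Nusap1 in 9 and Cdk1 in 6. Cdk1 was lost in each of the 6 fits that left out 1 pool. Median changes over the members stayed between 0.24 and 0.33 in these 6 fits.

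Other genes of mitosis came from a list of 101 that excludes the 40. Of the 98 measured, 18 rose and 0 fell (18.4%, against 6.59% of all genes that rose). At an unadjusted p under 0.05 from limma 50 of the 98 rose and 0 fell, where 2695 of all 19938 genes rose and 2386 fell. A change above 0 was found in 92 of the 98, against 57.5% of all genes tested, and the median change was 0.23. Calls were most frequent among centromere and kinetochore genes, 9 of 26, where Cenpm (0.58), Cenpq (0.54) and Ska3 (0.45) changed most (adjusted p = 0.0492, 0.0289 and 0.0302 from limma). Cenpm and Cenpq belong to the centromere-bound complex of CENPA chromatin, and Ska3 to a complex that keeps kinetochores on microtubules. Cenpm had 9.70, 9.66 and 9.91 in mutant pools, against 8.96, 9.61 and 8.94 in control pools, so that control pool 2 nearly reached the mutant pools.

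Gas2l3, which links actin and microtubules in dividing cells, had the largest change of the 98, 0.65, with 9.55, 9.07 and 9.59 in mutant pools, against 8.66, 8.89 and 8.72 in control pools (standard error 0.14, adjusted p = 0.0128 from limma). The other call among 8 cytokinesis genes was Cep55, of the midbody, with 0.40. Kif18a, a kinesin that dampens chromosome movements, Ckap2l and Psrc1, of the spindle, rose by 0.53, 0.38 and 0.34 among 19 spindle and centrosome genes (adjusted p = 0.0039, 0.0439 and 0.0487 from limma).

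Bora, which lets Aurora A activate Plk1, and Lin54, the DNA-binding subunit of the MuvB complex that recognises CHR elements, rose by 0.37 and 0.35 among 15 genes of mitotic entry (adjusted p = 0.0301 and 0.0332 from limma). Sgo2a, a protector of centromeric cohesin, rose by 0.40 and was the only call among 14 condensin and cohesin genes, and Fbxo5 (Emi1), an inhibitor of the anaphase-promoting complex, rose by 0.43 and was the only call among 16 genes of checkpoint, anaphase and exit (adjusted p = 0.0256 and 0.0171 from limma). Without control pool 1 or without mutant pool 3 only 2 of the 98 rose, without mutant pool 1 3 did, and without control pool 3 5 did.

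Complexes with members on both lists are given here, singled out after their values were seen. In the 4-subunit NDC80 complex Nuf2 and Spc25 rose (0.63 and 0.41), while Ndc80 (0.35) and Spc24 (0.06) did not pass, with adjusted p-values of 0.000918, 0.0335, 0.127 and 0.751 from limma. In the chromosomal passenger complex Birc5 and Cdca8 (borealin) rose by 0.44 and 0.41, and Aurkb (0.39) and Incenp (0.32) lay just outside the threshold, with adjusted p-values of 0.00914, 0.0302, 0.0506 and 0.051 from limma. No difference between subunits was tested.

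Earlier phases of the cycle were read from 2 further lists. Of 35 DNA replication genes, 5 rose and 0 fell (14.3%, against 6.59% of all genes that rose), and the median change was 0.18. At an unadjusted p under 0.05 from limma 12 of the 35 rose and 0 fell, where 2695 of all 19938 genes rose and 2386 fell. Gins1 and Gins4, subunits of the replicative helicase, rose by 0.62 and 0.40, and Fen1, the flap nuclease of lagging strands, rose by 0.40 (adjusted p = 0.003, 0.0123 and 0.0491 from limma). Mcm2 to Mcm7, the ring of the same helicase, had changes between -0.17 (Mcm6) and 0.18 (Mcm3). Only 1 of the 35 rose without control pool 1, and 2 rose without mutant pool 1, without mutant pool 3 or without control pool 3.

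Of 23 G1 cyclins, their kinases, inhibitors and regulators, 3 rose and 0 fell at the adjusted threshold (13.0% rose, against 6.59% of all genes). At an unadjusted p under 0.05 from limma 7 of the 23 rose and 0 fell, where 2695 of all 19938 genes rose and 2386 fell. The median change of the 23 genes was 0.03, as over all genes. Mycn, a transcription factor of the Myc family, E2f1, a transcription factor of S phase genes, and Ccne2, encoding cyclin E2, rose by 0.51, 0.41 and 0.40 (adjusted p = 0.0163, 0.0296 and 0.0216 from limma). The changes of the other 20 genes did not pass and lay between -0.29 (Myc) and 0.40 (Ccnd2).

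**Figure D5:**
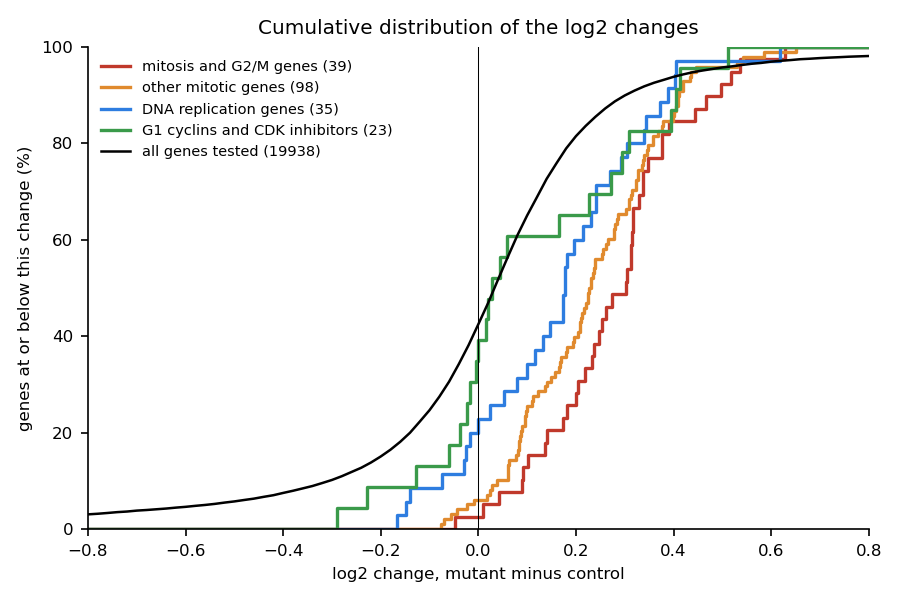
Cumulative share of genes (vertical axis, %) at or below each log2 change, mutant minus control (horizontal axis), for the mitosis and G2/M genes, 98 other mitotic genes, 35 DNA replication genes, 23 G1 cyclins and CDK inhibitors, and all 19938 genes tested, which run on past both ends of the axis. The medians are 0.30, 0.23, 0.18, 0.03 and 0.03.

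The tissue itself differed between the genotypes, and these values stand beside every count above. Each summed signal is led by its brightest genes and is no measure of a share of cells. Among these were Cpa1 (mean log2 value 9.31 in mutant and 13.17 in control pools) and Gcg (10.97 and 13.16). Of 10 pancreatic epithelium markers 9 fell, with a summed signal of 6000 to 6560 in mutant pools and 22300 to 25200 in control pools. Their log2 changes ran from -4.16 (Pdx1) to -0.39 (Epcam) and -0.33 (Sox9, which did not pass, adjusted p = 0.14 from limma). Of 10 endocrine markers 9 fell and 1 rose, with a summed signal of 3040 to 3600 in mutant pools and 15600 to 18500 in control pools. Of 12 endothelial markers 3 rose, with 8160 to 8780 in mutant pools and 6660 to 7120 in control pools. Of 12 mesenchyme markers 4 rose and 2 fell, with 21000 to 23400 in mutant pools and 22700 to 23600 in control pools. Over all genes tested, 6.59% rose and 7.53% fell.

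The ranges also overlapped in 10 erythroid markers, of which 2 rose and 1 fell (8890 to 10100 in mutant pools and 8780 to 11300 in control pools) and in 12 macrophage and leukocyte markers (2960 to 3610 in mutant pools and 2630 to 3380 in control pools). They did not in 10 neural and glial markers (1820 to 2000 in mutant pools and 2570 to 2680 in control pools) and in 8 mesothelial markers (1660 to 2120 in mutant pools and 2480 to 2990 in control pools). Of the neural and glial markers 7 fell and 1 rose, and of the mesothelial markers 4 fell. The part of these cell types in the changes of the mitosis and G2/M genes was not tested.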

How the data were processed

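The table deposited by the authors gives log2 expression for 35556 transcript clusters of the array. How background was corrected and arrays were normalized is not given in the sources used, and the medians of the arrays were 6.37 to 6.47. Rows with 1 symbol in the platform annotation (21789) were tested, with the row of highest mean for the 999 genes that had several; 1621 rows with several symbols and 12146 with none were left out. Labels gave genotype and replicate, and the study's methods the size of the pools.

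Mutant and control pools were compared with limma 3.58.1 (R 4.3.3) in its default settings, lmFit then eBayes, without covariate or filter on dim genes. The test was two-sided, with the Benjamini-Hochberg adjustment over all 19938 genes and a threshold of 0.05. The step was also run on simulated data whose noise was independent between genes. Such data cannot show how it behaves for genes that shift together by pool. An exact permutation test of 3 pools against 3 cannot go below p = 0.1. Python 3.11.15, pandas 2.3.3 and matplotlib 3.10.9 were used for tables, promoter searches and figures, with RefSeq tables of GRCm38.p6 for promoters. Marker signals were summed after conversion from log2.

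Same-numbered pools did not deviate together (r = 0.01, -0.15 and -0.05), so the numbers were not used as pairs in the fit reported. An alternative fit, called the replicate block below, did pair the pools by number. The members and lists were chosen with earlier results of these data known. Named genes were all members, Ctnnb1, per further list up to 3 genes past the test by size of change, and genes of complexes and of G1 added after their values were seen. Marker lists are given by counts and sums, with a few markers named for their brightness or for the range of the changes.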

Additional observations from a re-analysis of the deposited data

How the results depend on the processing

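Of the members 10 rose in the fit reported, 6 with the replicate block, 4 with every row of the table fitted, 28 with array weights, 3 at an adjusted p of 0.01 and 21 at an unadjusted p of 0.05; leaving out 1 pool at a time gave 3 to 14. Of the other mitotic genes 18 rose, against 7 with the replicate block, 32 with arrays centred on their medians, 31 with genes above the lower quartile or above the median of level, 2 with all rows, 30 with a trended and robust prior, 56 with array weights, 2 at an adjusted p of 0.01, 50 at an unadjusted p of 0.05 and 2 to 23 with 1 pool left out. Of the DNA replication genes 5 rose, against 2 with the replicate block, 2 with all rows, 13 with array weights, 1 at an adjusted p of 0.01, 12 at an unadjusted p of 0.05 and 1 to 6 with 1 pool left out. In none of these fits did a gene of the 3 lists fall. Over all genes 1313 rose, against 751 with all rows, 3025 with array weights, 723 at an adjusted p of 0.01, 2695 at an unadjusted p of 0.05 and 843 to 1328 with 1 pool left out, and 1502 fell, against 2422 with array weights, 2386 at an unadjusted p of 0.05 and 1132 to 1413 with 1 pool left out. The fit to all rows adjusted over more rows, and the fits with 1 pool left out held fewer arrays. The cause of these shifts was not tested.

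The direction turned in 3 members, none of them past the test in any fit: the log2 change of Mki67 was 0.0222 with array weights and -0.139 to 0.0235 with 1 pool left out (0.0235 without control pool 3), that of Cenpf was -0.0023 with arrays centred on housekeeping genes and -0.0497 to 0.109 with 1 pool left out (-0.0297 without mutant pool 3, -0.0497 without mutant pool 1 and -0.0295 without control pool 1), and that of Ect2 was -0.0503 to 0.101 with 1 pool left out (-0.0503 without control pool 1). Under the other scalings (medians, housekeeping genes, quantiles) 14, 9 and 9 members rose. The arrays number 3 per genotype, with no detection calls used, so differences of the size of the smaller changes here were not resolved.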
